A study of Mus musculus with 8 samples.

Results

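The genes described here are the core-binding factor subunits Cbfb, Runx1 and Runx3 and the corepressors that Runx proteins recruit: the ETO family genes Cbfa2t2, Cbfa2t3 and Runx1t1 and the Groucho family genes Tle1, Tle3 and Tle4. They were taken by symbol from the rows to which the platform annotation gives exactly 1 gene, and are 9 of 19938 such genes. Cbfa2t2 and Cbfa2t3 each had 2 rows, so the 9 genes held 11 of 21789 rows, and the brighter row, by its mean over the 8 arrays, was used. Runx2 was not analysed here. The samples were LSK cells, among which are the blood stem cells and the earliest multipotent progenitors, and GMP cells, which are committed to granulocytes and macrophages. They were sorted from the bone marrow of mice aged 7 weeks, on a backcrossed C57BL6 background, at 200000 cells a sample and a purity above 98%. Knockout mice (KO) were Vav1-iCre x Cbfb(F/F), with both Cbfb alleles floxed. Control mice (Het) were Vav1-iCre x Cbfb(F/+), with the same Cre, 1 floxed allele and 1 intact allele. The Vav1 promoter drives the Cre throughout the blood lineages, so the deletion is not limited to LSK or GMP cells. No group without Cre or with 2 intact alleles was analysed here. Het LSK, KO LSK, Het GMP and KO GMP held 2 arrays each.

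Core-binding factor is a dimer. The Runx subunit binds DNA through its Runt domain, and Cbfb, which does not touch DNA itself, raises that affinity and protects the Runx protein from degradation. Runx proteins activate or repress their targets according to the cofactors they recruit. Groucho proteins, encoded by the Tle genes, bind the short motif at the Runx carboxyl end, and ETO proteins are scaffolds for histone deacetylase complexes. Runx1 is required for blood stem cells to emerge in the embryo, and the genes for Runx1, Cbfb, Runx1t1 and Cbfa2t3 are all involved in leukemia chromosome rearrangements.

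Values are log2 expression values, in which a difference of 1 is a doubling of signal. A row is said to be called where limma's Benjamini-Hochberg adjusted p over all 21789 rows was under 0.05. The median of the tested rows lay between 4.92 and 5.09 on each array, and arrays of the same group correlated across rows at 0.990 to 0.995, against 0.955 to 0.983 between groups. The summed sort markers followed the sorts: the mean of the 7 GMP markers was 10.67 to 10.92 on the GMP arrays and 7.84 to 8.32 on the LSK arrays. The mean of the 7 measured LSK markers was 8.30 to 8.60 in Het LSK, 7.27 to 7.72 in KO LSK, 5.97 to 6.08 in Het GMP and 6.39 to 6.60 in KO GMP. Between KO and Het, 4 of these 7 were called lower and 1 higher in LSK cells, where 7.73% of all rows were called. Flt3 differed by -3.41, Mecom by -2.47, Procr by -2.27 and Hlf by -1.11, while Slamf1 differed by 2.40. The part of these markers in the LSK differences below was not tested. With 2 arrays a group, an exact permutation test of 1 gene cannot go below p = 0.333, so the tests rest on limma, which borrows the spread from all rows. Sample titles number the arrays as biological replicates, though no label says which mouse gave which array. These are bulk samples, in which fewer cells of a type and less RNA per cell cannot be told apart.

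Between KO and Het, Runx1 was higher in both cell types, Cbfb was lower in GMP cells and on average over both, Runx3 was higher in GMP cells and on average over both, and none of the 6 corepressor genes passed limma's test. In LSK cells 1 of the 9 genes was called, Runx1, where 7.73% of all rows were. Of the rows called in LSK cells 39.0% were higher in KO, and 52.4% once each array's median was subtracted. In GMP cells 3 were called, Cbfb, Runx1 and Runx3, where 6.02% of all rows were. The same 3 genes were called for the KO effect averaged over both cell types, where 11.1% of all rows were called. The arrays of KO and Het did not overlap for 7 of the 9 genes in LSK cells and for 6 in GMP cells. Over all rows this held for 45.5% in LSK and 51.3% in GMP cells, so non-overlap alone is common here. The median difference over the 9 genes was -0.17 in LSK and 0.12 in GMP cells, against 0.01 and -0.02 over all rows.

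**Figure D1:**
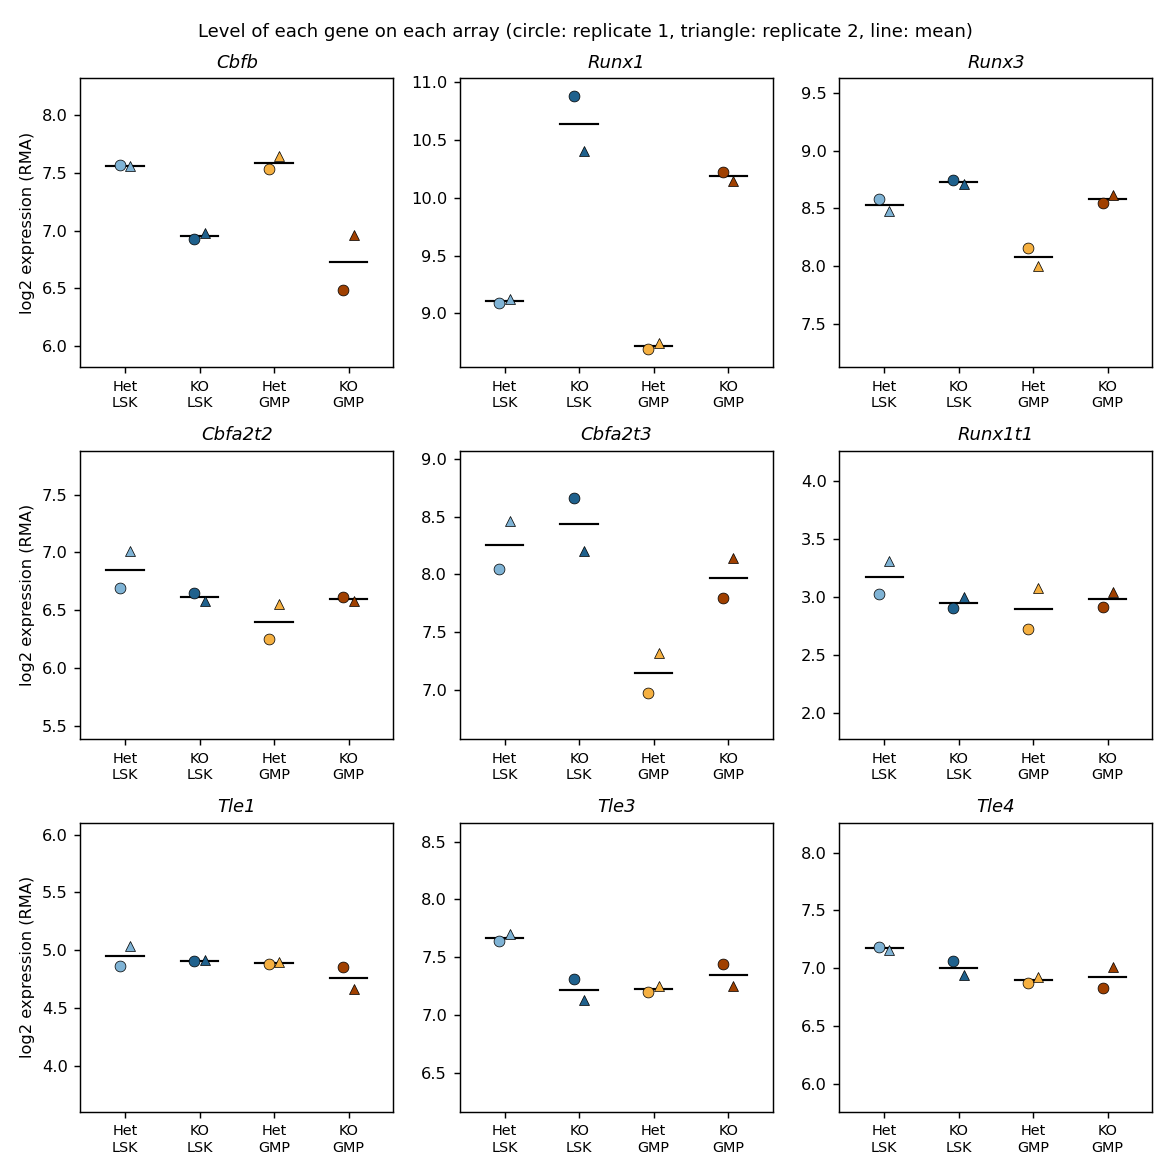
Level of each of the 9 genes (log2 expression, vertical axis) on each of the 8 arrays, by group; circles are replicate 1, triangles replicate 2 and lines group means, and each panel spans the same number of log2 units. Runx1 sits between 10.15 and 10.88 on the 4 KO arrays and between 8.69 and 9.13 on the 4 Het arrays, and Cbfb is at or below 6.98 on every KO array and at or above 7.53 on every Het array.

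**Figure D2:**
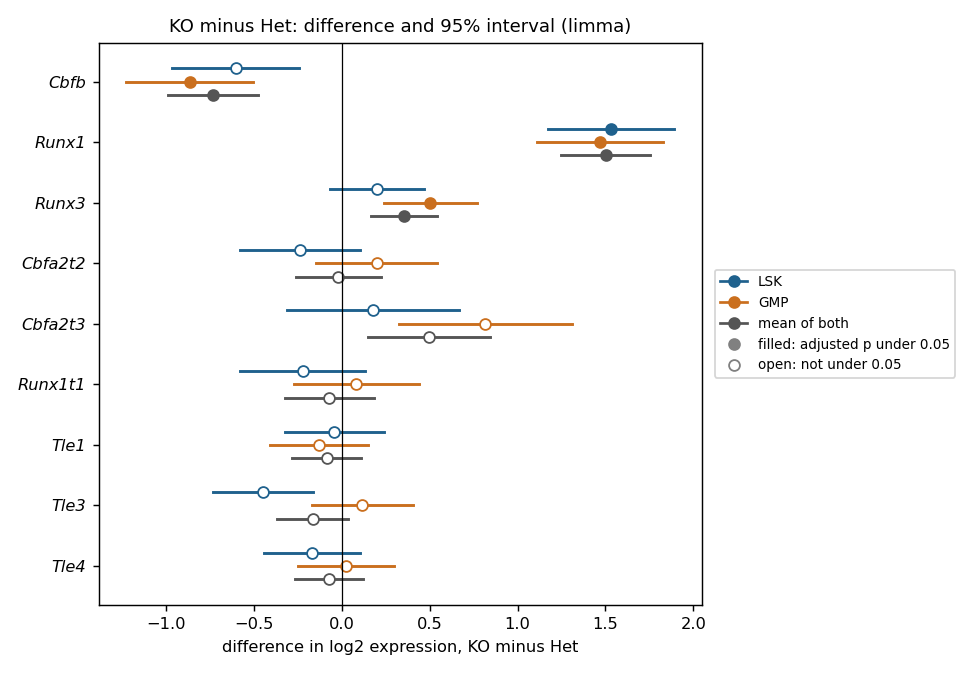
KO minus Het difference of each gene (log2 scale, horizontal axis) in LSK cells, in GMP cells and averaged over both, with limma's 95% interval; filled points have an adjusted p under 0.05. Runx1 stands far above 0 in both cell types, Cbfb lies below 0 in both, and most corepressor intervals cross 0.

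Cbfb, the target of the deletion, was measured first as a check of the labels. In LSK cells its level was 7.56 and 7.55 on the Het arrays and 6.93 and 6.98 on the KO arrays. In GMP cells it was 7.53 and 7.65 in Het and 6.48 and 6.96 in KO. All 4 KO arrays lay below all 4 Het arrays, so the gene went the way the labels say, but the signal did not reach the low end of the scale. The floxed exons are not named in the labels, and probes that lie elsewhere in the gene check nothing. The KO minus Het difference was -0.60 (SE 0.16, limma's 95% interval -0.97 to -0.24) in LSK cells, with an adjusted p of 0.0557 that missed the threshold. In GMP cells it was -0.86 (limma's adjusted p = 0.0130), and averaged over both -0.73 (SE 0.11, adjusted p = 0.00290). The averaged fall passed in every one of the 14 alternative analyses. In GMP cells limma's adjusted p rose to 0.0689 on leaving out Het GMP replicate 1, to 0.104 for Het GMP replicate 2 and to 0.0755 for KO GMP replicate 1. It was 0.0632 with every row of the table in the adjustment. The LSK fall passed when either KO GMP array was left out of the limma fit (adjusted p = 0.0252), with low rows left out (0.0350) and with limma's trend (0.0352).

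Runx1, the main Runx subunit of adult blood stem and progenitor cells, showed the largest KO minus Het difference of the 9 genes. Its level in LSK cells was 9.09 and 9.13 on the Het arrays and 10.88 and 10.40 on the KO arrays. In GMP cells it was 8.69 and 8.74 in Het and 10.23 and 10.15 in KO. All 4 KO arrays lay above all 4 Het arrays. The rise was 1.53 in LSK cells, a 2.90-fold difference (limma's adjusted p = 0.000448), and 1.47 in GMP cells, a 2.77-fold difference (adjusted p = 0.000694). It ranked 154th among the rises of all rows in LSK and 210th in GMP cells. The call held in all 15 alternatives in each cell type. The groups ordered as KO LSK, KO GMP, Het LSK, Het GMP from high to low, and neighbours in that order did not overlap. Runx1 is transcribed from a distal and a proximal promoter, and the single value here does not separate them.

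Runx3, the Runx gene best known for its role in T cells and also expressed in progenitors, moved less. Its level in LSK cells was 8.58 and 8.48 on the Het arrays and 8.75 and 8.71 on the KO arrays. In GMP cells it was 8.15 and 8.001 in Het and 8.55 and 8.62 in KO. The KO arrays lay above the Het arrays within each cell type, but KO GMP and Het LSK overlapped. The difference was 0.20 in LSK cells (limma's adjusted p = 0.404), 0.50 in GMP cells (SE 0.12, adjusted p = 0.0382) and 0.35 averaged over both (SE 0.083, adjusted p = 0.0254). The GMP call held in 5 of 15 alternatives and the averaged call in 6 of 14. Under limma, the GMP adjusted p was 0.0583 without either Het LSK array, 0.109 and 0.232 without Het GMP replicate 1 or 2, and 0.142 and 0.228 without KO GMP replicate 1 or 2. It was 0.0640 with array medians subtracted, 0.0939 with all rows tested, 0.0506 with only the GMP arrays in the fit, and 0.0577 with the replicate number as a block. The averaged call was lost with all rows tested (limma's adjusted p = 0.0569) and without Het LSK replicate 1 (0.0543) or 2 (0.0844), KO LSK replicate 1 (0.0511), replicate 1 (0.0512) or 2 (0.102) of Het GMP, or replicate 1 (0.0683) or 2 (0.101) of KO GMP.

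The start regions of these genes were read for the core Runx recognition letters, TGTGGT and TGCGGT, on both strands. RefSeq windows of GRCm38.p6, from 250 bases before to 50 after an annotated start, were on hand for 8 of the 9 genes (12 windows; Runx1t1 was not matched). At least 1 match stood in 3 of the 12, and in 22.4% of all 32851 windows. The 3 stretches below are printed because they hold every match among these genes, each 5′ to 3′ on the gene's strand. Capitals mark the reverse complement of the searched word.
Runx1, distal start, chr16:92826025-92826054, minus strand: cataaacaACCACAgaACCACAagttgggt
Runx3, distal start, chr4:135120503-135120532, plus strand: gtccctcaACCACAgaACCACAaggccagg
Cbfa2t3, first start, chr8:122699216-122699245, minus strand: cccccgacccccACCGCAttatcactgtga

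Runx1 and Runx3 each held 2 matches to TGTGGT, 8 bases apart from start to start, at positions 28 and 36 after the distal Runx1 start and at positions -134 and -126 from the distal Runx3 start. The Runx1 pair lies in transcribed sequence just after the start, the Runx3 pair upstream. The paired stretches share a run of 18 letters, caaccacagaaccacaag. A same-strand pair at that spacing was present in 7 of 32851 windows (0.0213%), and 2 of the 7 genes concerned are Runx1 and Runx3. The spacing was singled out after these matches were seen. Cbfa2t3 held 1 match to TGCGGT, at position -124 from its first start. No match stood in the windows of Cbfb, Cbfa2t2, Tle1, Tle3 or Tle4, nor at the other starts of Runx1, Runx3 and Cbfa2t3. A match is a description of letters only. The 250 bases before the distal starts are given to show that the Runx3 pair lies upstream while the same interval of Runx1 has none.
Runx1, chr16:92826075-92826324, minus strand: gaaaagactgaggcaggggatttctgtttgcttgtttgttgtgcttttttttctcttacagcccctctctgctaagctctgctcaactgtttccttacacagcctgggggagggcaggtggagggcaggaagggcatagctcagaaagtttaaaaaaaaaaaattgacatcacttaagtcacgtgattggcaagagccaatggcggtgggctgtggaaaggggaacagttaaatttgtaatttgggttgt
Runx3, chr4:135120395-135120644, plus strand: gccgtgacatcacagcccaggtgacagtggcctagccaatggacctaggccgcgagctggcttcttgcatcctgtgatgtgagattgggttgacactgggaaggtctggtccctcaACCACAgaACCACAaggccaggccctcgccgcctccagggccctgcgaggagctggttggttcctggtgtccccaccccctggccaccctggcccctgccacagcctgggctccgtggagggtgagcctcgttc

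Markers of other cells moved with genotype, and their part in the Runx1, Runx3 and Cbfa2t3 differences was not tested. Of 12 listed megakaryocyte and platelet markers 8 were measured, with an array mean of 6.18 to 6.19 in Het LSK, 7.78 to 8.001 in KO LSK, 5.10 to 5.46 in Het GMP and 8.50 to 8.77 in KO GMP. In KO, 4 of these 8 rose and 1 fell in LSK cells, and all 8 rose in GMP cells. Here and below these are counts of called genes, where 7.73% of all rows were called in LSK and 6.02% in GMP cells. The 8 lymphoid markers had a mean of 7.12 to 7.64 in Het LSK and 4.31 to 5.13 in KO LSK, where 7 fell. The mean of 6 measured monocyte markers was 6.99 to 7.08 in Het LSK and 5.69 to 5.85 in KO LSK, where 3 fell, and 7.74 to 7.92 in Het GMP and 5.63 to 6.49 in KO GMP, where 5 fell. The mean of the 6 neutrophil markers was 6.62 on 1 Het LSK array and 8.26 on the other. In KO LSK it was 6.58 to 7.30, and 0 of the 6 were called in LSK cells. It was 8.51 to 9.42 in Het GMP and 7.59 to 7.998 in KO GMP, where 1 fell. Of 9 erythroid markers 5 were measured. Their mean was 6.28 to 6.35 in Het LSK and 5.29 to 5.31 in KO LSK, where 2 fell. In GMP cells it was 5.91 to 6.14 in Het and 5.64 to 5.72 in KO, where 1 rose and 1 fell. The 6 mast cell and basophil markers had a mean of 4.82 to 5.40 in Het LSK. In KO LSK it was 5.69 to 5.88, where 2 rose and 1 fell. It was 7.39 to 7.43 in Het GMP and 6.75 to 7.18 in KO GMP, where 1 rose and 2 fell.

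Cbfa2t3 encodes ETO2, a corepressor of the complexes that Gata1, Tal1 and Runx1 form in megakaryocyte and erythroid progenitors. Its level in LSK cells was 8.05 and 8.46 on the Het arrays and 8.66 and 8.20 on the KO arrays, which overlap. In GMP cells it was 6.98 and 7.32 in Het and 7.79 and 8.14 in KO, where both KO arrays were higher. The GMP difference was 0.82 (SE 0.22, 95% interval 0.33 to 1.31), with limma's adjusted p = 0.0658. The LSK difference was 0.18 (adjusted p = 0.738). Het GMP was the low group. Above it, in the order KO LSK, Het LSK, KO GMP, each group overlapped its neighbour. The GMP difference passed when only the GMP arrays were fitted (limma's adjusted p = 0.0369), with low rows left out (0.0433), with limma's trend (0.0351) and without either KO LSK array (0.0402). The average over both cell types, 0.50 (adjusted p = 0.0774), passed with limma's trend (0.0461) and without KO LSK replicate 2 (0.0337). The second, dimmer row of Cbfa2t3 gave 0.35 in GMP cells (adjusted p = 0.430) and -0.16 in LSK cells.

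The other ETO family genes did not pass. Cbfa2t2, which encodes MTGR1, had group means of 6.85 in Het LSK, 6.61 in KO LSK, 6.40 in Het GMP and 6.60 in KO GMP. Its KO minus Het difference was -0.24 in LSK cells (limma's adjusted p = 0.450) and 0.20 in GMP cells (adjusted p = 0.589). Runx1t1, which encodes ETO itself, had group means between 2.90 and 3.17, below the median of the tested rows in each of the 4 groups. Both KO LSK arrays (2.90 and 2.997) lay below both Het LSK arrays (3.03 and 3.31), and the GMP arrays overlapped. Its KO minus Het difference was -0.22 in LSK and 0.08 in GMP cells, and limma called neither. At that signal a real change would be understated.

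Among the Groucho genes, Tle3 had the clearest difference and still missed the threshold. Its level in LSK cells was 7.64 and 7.70 on the Het arrays and 7.31 and 7.13 on the KO arrays. In GMP cells it was 7.20 and 7.25 in Het and 7.44 and 7.25 in KO. Het LSK stood alone as the high group, and the other 3 groups overlapped. The LSK difference was -0.45 (SE 0.13, 95% interval -0.73 to -0.16) with limma's adjusted p = 0.0722, and the GMP difference was 0.12 (adjusted p = 0.730). The LSK difference passed with low rows left out (limma's adjusted p = 0.0365) and with limma's trend (0.0472). Tle4 differed by -0.17 in LSK cells (adjusted p = 0.516) and 0.02 in GMP cells (adjusted p = 0.952). Tle1, whose group means of 4.76 to 4.95 lay just below the row median, differed by -0.04 and -0.13.

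**Figure D3:**
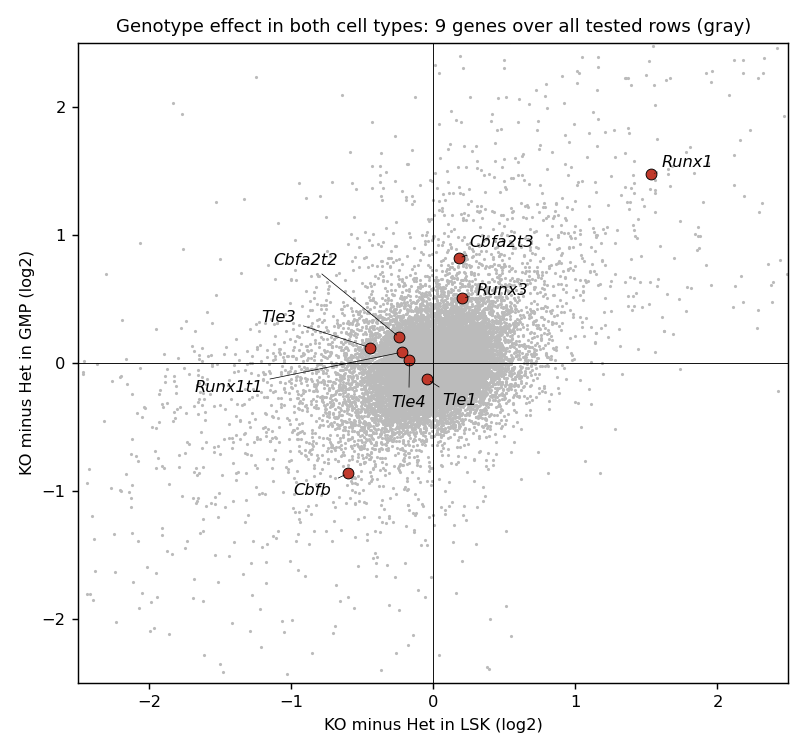
KO minus Het difference in LSK cells (horizontal axis, log2 scale) against that in GMP cells (vertical axis, log2 scale); grey points are tested rows, named points are the 9 genes, and 170 rows lie beyond the axes. Runx1 lies at 1.53 and 1.47, Cbfb at -0.60 and -0.86, and the corepressors lie nearer the centre.

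Whether the KO effect differed between GMP and LSK cells was tested as an interaction. None of the 9 genes was called by limma, where 2.29% of all rows were, and 1 of the 9, Tle3, had an unadjusted p under 0.05. The Tle3 interaction was 0.56 (95% interval 0.16 to 0.97, limma's adjusted p = 0.186). That of Cbfa2t3 was 0.64 (adjusted p = 0.430), of Runx3 0.30 (adjusted p = 0.506), of Cbfb -0.26 (adjusted p = 0.727) and of Runx1 -0.06 (adjusted p = 0.955). Subtracting each array's median lowered every interaction by 0.14 and moved the share of called rows with a positive interaction from 73.7% to 58.4%. So Runx3, called in GMP and not in LSK cells, is not shown to respond differently in the 2 cell types.

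The same genes were then compared between the cell types within each genotype. In Het, 3 of the 9 genes were lower in GMP than in LSK cells and none was higher: Cbfa2t3 by a difference of -1.11 (limma's adjusted p = 0.00748), Runx3 of -0.45 (0.0275) and Tle3 of -0.44 (0.0428). Over all rows 17.5% were called in this comparison, and 9.6% were called lower. The arrays did not overlap for 6 of the 9 genes, all lower in GMP, against 57.9% of all rows in either direction. Cbfa2t2 at -0.45 (adjusted p = 0.0760), Runx1 at -0.39 (0.136) and Tle4 at -0.27 (0.170) did not pass in the limma fit, nor did Cbfb at 0.03 (95% interval -0.33 to 0.39). In KO, 0 of the 9 genes were called by limma, where 6.05% of all rows were, and 1, Runx1 at -0.45 (adjusted p = 0.151), had an unadjusted p under 0.05. The arrays did not overlap for 4 genes there, again all lower in GMP, against 47.5% of all rows. The KO differences were -0.47 for Cbfa2t3 (limma's adjusted p = 0.285), -0.15 for Runx3 and 0.12 for Tle3. The interaction given above is also the test of whether the cell type difference changed with genotype, and no gene passed it.

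**Figure D4:**
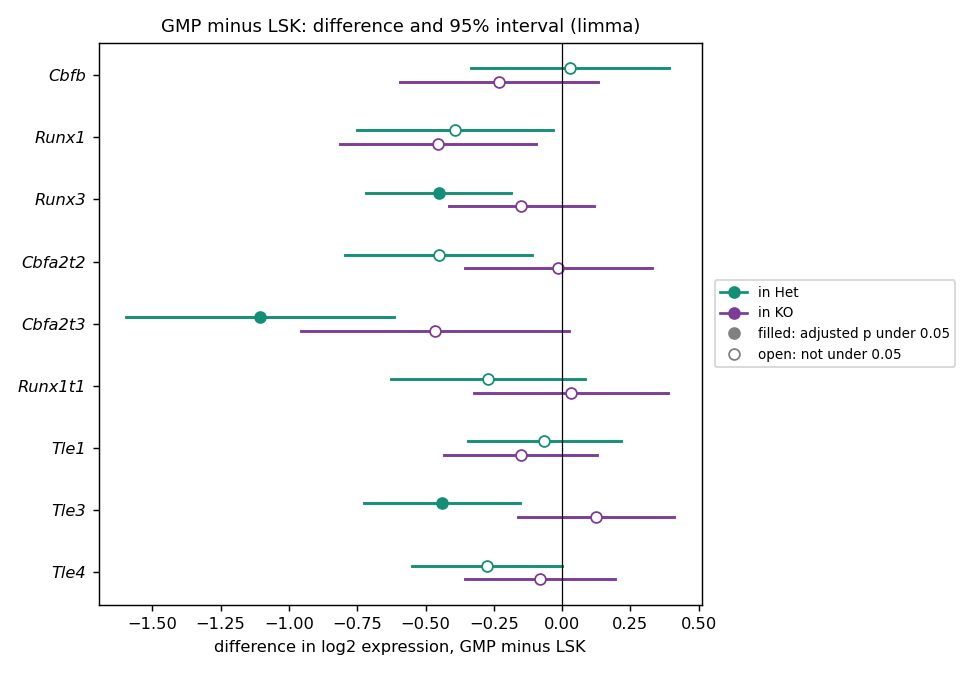
GMP minus LSK difference of each gene (log2 scale, horizontal axis) in Het and in KO, with limma's 95% interval; filled points have an adjusted p under 0.05. Cbfa2t3 is the farthest below 0 in Het at -1.11 and lies at -0.47 in KO.

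Scaling touched the Het comparison. Subtracting each array's median raised every GMP minus LSK difference in Het by 0.16 and moved the share of called rows that were higher in GMP from 45.1% to 67.1%. Relative to that shift, Cbfa2t3 was still lower at -0.95 (limma's adjusted p = 0.0121), while Runx3 at -0.30 (0.113) and Tle3 at -0.28 (0.127) no longer passed. The Cbfa2t3 call was lost without Het LSK replicate 2 (limma's adjusted p = 0.0659) or Het GMP replicate 1 (0.0719), and its second row gave -0.43 (0.186). Runx3 was called in 9 of 15 alternatives. It was lost without Het LSK replicate 1 (limma's adjusted p = 0.126) or 2 (0.0790) and without Het GMP replicate 1 (0.0692) or 2 (0.169). Tle3 was called in 6 of 15, and lost without Het LSK replicate 1 (limma's adjusted p = 0.106) or 2 (0.187), Het GMP replicate 1 (0.200) or 2 (0.130), or either KO GMP array (0.0575). Runx1 in Het passed without either KO LSK array (limma's adjusted p = 0.0378), and in KO without KO LSK replicate 2, at -0.69 (0.0208). Cbfa2t2 in Het passed with low rows left out (limma's adjusted p = 0.0423) and with a random block for replicate within genotype (0.0462).

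The rows most like each subunit over the 8 arrays are given as a description, since arrays of the same group share their condition. Genes whose group means spanned at least 0.5 times the range of the subunit were searched. By Pearson's r, the nearest to Runx1 were Gng11 (0.996), Fam174b (0.995) and Slc41a3 (0.991). The nearest to Runx3 were Tal1 (0.991), a hematopoietic transcription factor, Oas1b (0.987) and Cmtm8 (0.987). The nearest to Cbfb were Cd28 (0.950), Hs2st1 (0.948) and Kctd14 (0.946).

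Further genes of the pathway were read from lists chosen with earlier results of these data known. The counts below stand beside 7.73% of all rows called in LSK cells and 6.02% in GMP cells. Of 5 symbols listed for other Runx and Groucho family genes, 3 were measured, 1 of which fell in LSK cells. In GMP cells 0 were called by limma and 0 had an unadjusted p under 0.05. The gene that fell was Tle2, at -0.51 (limma's adjusted p = 0.0397), a call that held in 2 of 15 alternatives and was lost without any 1 of the 8 arrays, at adjusted p from 0.0630 to 0.223. The median over the 3 genes was -0.37 in LSK and -0.11 in GMP cells. Of 14 genes of the corepressor machinery (deacetylases, Sin3, NCoR and related factors) 11 were measured, 0 were called by limma in LSK cells (2 had an unadjusted p under 0.05, and 1 was called with low rows left out or with limma's trend) and 1 rose in GMP cells. The latter was Hipk2, a kinase that phosphorylates Runx1, at 0.59 (limma's adjusted p = 0.0333), which missed the threshold without either Het LSK array (0.0561), without Het GMP replicate 1 (0.189) or 2 (0.150), and without KO GMP replicate 1 (0.0971) or 2 (0.224). It also missed it with all rows tested (limma's adjusted p = 0.100) and with the replicate block (0.0520). The histone deacetylase Hdac1 differed by -0.37 in LSK cells without passing (limma's adjusted p = 0.0934). The list medians were -0.05 in LSK and 0.05 in GMP cells.

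All 12 coactivators and modifying enzymes were measured, and 1 rose in each cell type, a share near the 7.73% of all rows called in LSK and the 6.02% in GMP cells. Cdk6, a cell cycle kinase that also binds Runx1, rose by 0.59 in LSK cells (limma's adjusted p = 0.0232), a call lost without Het LSK replicate 2 (0.152) or KO LSK replicate 1 (0.0858), with all rows tested (0.0631) and with only the LSK arrays fitted (0.0961). Kmt2a, the histone methyltransferase MLL1, rose by 0.73 in GMP cells (limma's adjusted p = 0.0372), a call that ended without replicate 1 (0.256) or 2 (0.0951) of Het GMP and without replicate 1 (0.139) or 2 (0.202) of KO GMP, and with all rows tested (0.128). The list medians were 0.01 in LSK and 0.20 in GMP cells, against 0.01 and -0.02 over all rows. In GMP cells 4 of the 12 had an unadjusted limma p under 0.05, all higher in KO, and in LSK cells 1 had.

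Among 18 transcription factor partners of Runx proteins and of Cbfa2t3, 2 rose and 1 fell in LSK cells, and 6 rose and 1 fell in GMP cells, with medians of 0.07 and 0.36, where 7.73% and 6.02% of all rows were called. In GMP cells Gfi1b, a transcriptional repressor that acts in megakaryocyte and erythroid progenitors, rose by 2.39. Zfpm1, the Gata1 cofactor FOG1, rose by 2.33 there and Gata1 by 2.13. Cebpa, a driver of granulocyte and macrophage fate, fell by 1.67. Those 4 calls held in every alternative. In LSK cells Gfi1b rose by 1.05 (limma's adjusted p = 0.0281) and Gata1 by 0.72 (0.0411), and Gfi1 fell by 0.79 (0.0105). The Gfi1b call in LSK cells was lost without Het LSK replicate 1 (limma's adjusted p = 0.140) or 2 (0.116) or KO LSK replicate 1 (0.0778), with all rows tested (0.104) and with only the LSK arrays fitted (0.0649). That of Gata1 was lost without any 1 of the 4 LSK arrays (limma's adjusted p 0.0994 to 0.196), with all rows tested (0.120) and with the replicate block (0.0617). That of Gfi1 was lost without Het LSK replicate 2 (0.0762). In GMP cells 4 of the 18 partners were called without KO GMP replicate 2, and in LSK cells 0 without Het LSK replicate 2 and 1 without Het LSK replicate 1. The megakaryocyte markers given above moved the same way in GMP cells, and their part in these counts was not tested.

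Of 22 described Runx target genes 21 were measured, and 7 of those also stand in the cell type marker lists. In LSK cells 2 rose and 6 fell, and in GMP cells 4 rose and 2 fell, with medians of -0.13 and -0.08, where 7.73% and 6.02% of all rows were called. In LSK cells the B lineage genes Ebf1 and Cd79a fell by 3.42 and 3.05, and Rag1, the antigen receptor recombinase, fell by 2.72, while Itga2b, the megakaryocyte integrin CD41, rose by 2.68. In GMP cells Itga2b rose by 4.28, the kinase gene Prkcq by 4.12, the platelet lipoxygenase gene Alox12 by 3.24 and the platelet chemokine gene Pf4 by 2.23. These calls of limma held in every alternative. The GMP rise of Pf4 was not shared by LSK cells, where its group mean was 8.76 in Het and lower, 7.51, in KO. Group means of Prkcq and Alox12 were higher in KO in LSK cells too, but limma did not call Alox12 there. Their LSK group means were 7.20 in Het and 8.42 in KO for Prkcq, and 3.82 and 4.37 for Alox12.

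**Figure D5:**
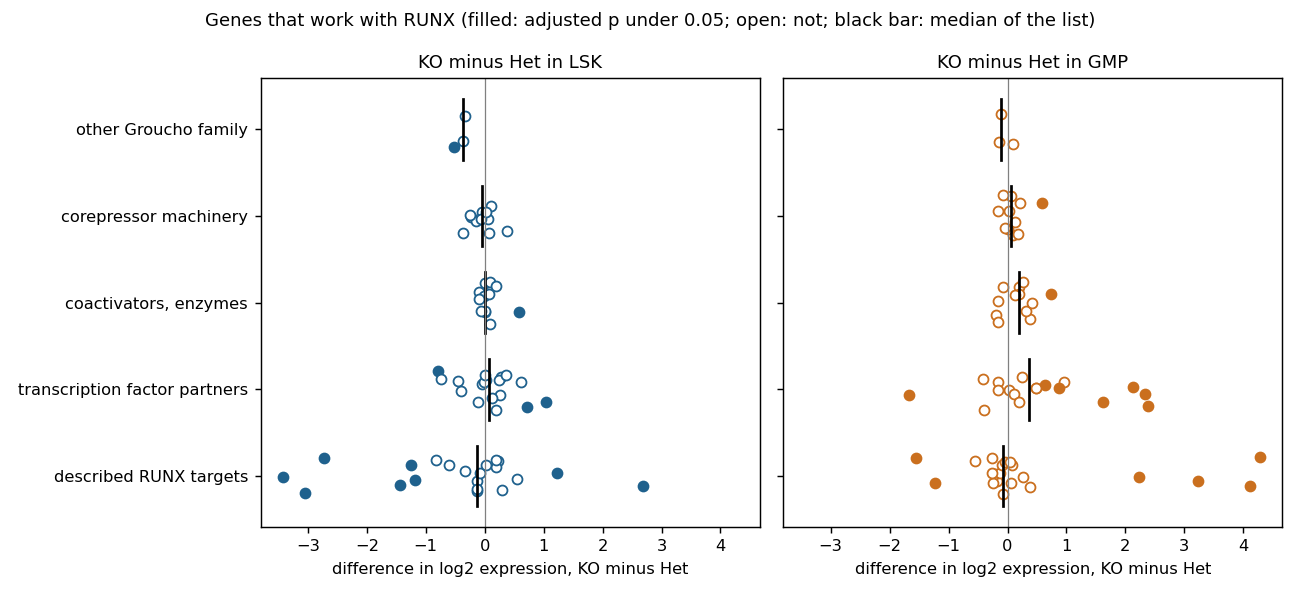
KO minus Het difference (log2 scale, horizontal axis) of each measured gene in the 5 pathway lists, in LSK and in GMP cells; each point is 1 gene, filled where called, and the black bar is the list's median. The corepressor and coactivator lists have medians from -0.05 to 0.20, the highest being that of the coactivators in GMP cells. Partners reach from -1.67 to 2.39 in GMP cells, and described targets from -3.42 in LSK to 4.28 in GMP cells.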

How the data were processed

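Affymetrix Mouse Gene 1.0 ST arrays, with probes along each transcript, were hybridised with amplified RNA of 8 sorted samples. The table deposited by the authors holds log2 signals summarised by RMA (robust multi-array average). The submitters' processing notes name RMA, and its version and the genome build were not given in the sources used here. RMA forces a common distribution on the arrays, which hides any change shared by all transcripts, and it gives no detection call. The number of arrays limits the precision.

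Of 35556 rows, 21789 carried exactly 1 symbol in the platform annotation, 1621 several and 12146 none. Only the first were tested. limma 3.58.1 (R 4.3.3) was fitted with lmFit on all 8 arrays, with 1 mean for each of 4 groups (4 residual and 4.83 prior degrees of freedom), then eBayes, two-sided, with Benjamini-Hochberg adjustment over the 21789 rows of each contrast. SE and 95% intervals are limma's. The script was tested on simulated data. The alternatives were array medians subtracted, all rows tested, low rows left out (11766 rows kept), only the groups compared, limma's trend, the replicate number as a block, a random block, each array left out in turn, and the other row of a gene. Groups came from the labelled genotype and cell type.

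The genes, lists, motifs and tests were chosen with earlier results of these data known. From each list and KO against Het contrast, up to 4 called genes were named, by size of difference; with 0 called, the 2 that differed most were taken, of which not all are printed. Promoter sequences are RefSeq's (GRCm38.p6).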

Additional observations from a re-analysis of the deposited data

Results flagged for a closer look

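For Cbfa2t2, both KO LSK arrays lay below both Het LSK arrays, and both KO GMP arrays lay above both Het GMP arrays. Neither difference passed: it was -0.24 in LSK cells (limma's adjusted p = 0.450) and 0.20 in GMP cells (adjusted p = 0.589). The KO effect in GMP minus that in LSK cells was 0.44 on the log2 scale, and the test of it did not pass either (limma's adjusted p = 0.441). The gene's other row gave -0.43 in LSK cells (limma's adjusted p = 0.131) and 0.05 in GMP cells (0.918). Its KO effect in GMP minus that in LSK cells was 0.48 (limma's adjusted p = 0.364).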

How the results depend on the processing

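Of 792 values of the 9 genes under the alternatives, 706 kept direction and side of the threshold, 40 lost the call, 18 gained it and 28 changed sign. None of those that changed sign was called with all arrays and the main settings. The cause was not tested except where fewer arrays or other rows entered.

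With array medians subtracted, Tle1 was 0.044 in LSK cells and 0.091 for GMP against LSK in Het, Tle4 -0.026 in GMP cells, and Cbfa2t2 0.0042 for GMP against LSK in KO, and 1 of the 9 genes was called for GMP against LSK in Het. With all rows tested, 1 of the 9 genes was called in GMP cells and 1 for GMP against LSK in Het. The called rows, now among 35556 in place of 21789, were 784 (from 1312) in GMP cells. They were 182 (from 499) for the interaction and 756 (from 1318) for GMP against LSK in KO. With low rows left out, which drops Runx1t1 and Tle1, and with limma's trend, 3 genes were called in LSK cells. With only the groups compared, 1071 rows (from 1684) were called in LSK cells and 691 for GMP against LSK in KO. The other row of Cbfa2t2 gave 0.26 for GMP against LSK in KO, and that of Cbfa2t3 gave -0.16 in LSK cells and 0.081 for GMP against LSK in KO.

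Leaving out 1 array at a time, 1 to 2 of the 9 genes were called in LSK cells (994 to 1614 rows), 1 to 4 in GMP cells (634 to 1586 rows) and 2 to 4 for the average (1605 to 2729 rows, from 2414). The interaction had 223 to 705 called rows. GMP against LSK had 0 to 4 called genes in Het (2078 to 4486 rows, from 3813) and 0 to 1 in KO (579 to 1539 rows). The lowest counts of rows came without Het LSK replicate 2 in LSK cells (994), without KO GMP replicate 2 in GMP cells (634), without Het GMP replicate 1 for the average (1605), the interaction (223) and GMP against LSK in Het (2078), and without KO GMP replicate 1 for GMP against LSK in KO (579).

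The values that changed sign when an array was left out ranged as follows. In LSK cells Cbfa2t3 ran from -0.054 to 0.41 and Tle1 from -0.13 to 0.046. In GMP cells Runx1t1 ran from -0.095 to 0.26 and Tle4 from -0.068 to 0.12. For the average, Cbfa2t2 ran from -0.10 to 0.060 and Runx1t1 from -0.16 to 0.019. For the interaction, Runx1 ran from -0.30 to 0.18 and Tle1 from -0.18 to 0.0071. For GMP against LSK in Het, Cbfb ran from -0.030 to 0.090 and Tle1 from -0.15 to 0.024. For GMP against LSK in KO, Cbfb ran from -0.47 to 0.0080, Cbfa2t2 from -0.046 to 0.019, Runx1t1 from -0.034 to 0.097 and Tle4 from -0.17 to 0.011.

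The replicate numbers pair nothing in the labels. The deviations of same-numbered arrays correlated at 0.133 between Het LSK and Het GMP, 0.179 between KO LSK and KO GMP and -0.143 between Het LSK and KO LSK. With the replicate number as a block, Runx3 in GMP cells had limma's adjusted p = 0.0577 and Tle3 for GMP against LSK in Het 0.0579. The block also ended the calls of Hipk2 in GMP cells (0.0520) and of Gata1 (0.0617) and Tle2 (0.0611) in LSK cells, and no other call of a gene named here.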
